A study of Bos taurus and Capra hircus with 9 samples.

Results

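The miR-181 family of microRNAs was followed in extracellular vesicles (EVs) of goat and cow milk. Its members were found by name in the deposited table, as entries called miR-181 with a letter from a to d. This gave 4 of the 296 listed bovine entries (prefix bta), namely bta-miR-181a, bta-miR-181b, bta-miR-181c and bta-miR-181d, written below without the prefix. EVs were purified on a sucrose gradient from skimmed, cell-depleted milk of 4 Alpine goats (numbers 17, 44, 79 and 127) and 5 Holstein Friesian cows (numbers 1, 2, 3, 20 and 62), with 1 library per animal. A further goat of the study was lost at the RNA quality control. The titles and organism labels of the samples give the species, while a shared source text names cows for all of them. The milk was taken at 26 ± 9 days postpartum in goats and 30 ± 7 days in cows. The goats were primiparous, and no source used here gives the parity of the cows. Each species came from its own farm, goat milk had an extra acid step, and goat reads were counted on the bovine reference. Species, breed, farm, preparation and the fit of the reference therefore cannot be told apart. Values are TPM, the tags of an entry per 1000000 tags of a library, written as whole numbers. The listed entries summed to 239233 to 406336 TPM in goats and 267316 to 420029 TPM in cows, and the reads behind each library are unknown, since the study states only species averages, with more reads for goats. The milk epithelial miRNA miR-148a was in every library, with 59495 to 128040 TPM in the goats and 98491 to 162321 TPM in the cows.

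microRNAs are short RNAs that lower the output of messenger RNAs by pairing with them, mostly through a seed near the 5′ end. Members of a family that carry the same seed can pair with largely the same sites. The miR-181 family is known from work in mice for its part in blood cell development. There miR-181a raises the sensitivity of the T cell receptor by repressing phosphatases that dampen its signal, and the family takes part in B cell and natural killer T cell differentiation. It is also expressed outside the blood, for example in brain and endothelium, so its presence in milk EVs names no cell of origin. In the bovine RefSeq annotation (assembly ARS-UCD2.0) 6 hairpin genes of the family lay in 3 neighbouring pairs. The pairs were MIR181A-1 with MIR181B-1, MIR181A-2 with MIR181B-2, and MIR181C with MIR181D. A mature miR-181a or miR-181b tag does not tell which of its gene copies it came from.

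The deposited mature sequences are given here because the seed ties the family together and the bases after it tell the members apart. They are written 5′ to 3′ with T for U, and capitals mark the seed, bases 2 to 8.
miR-181a: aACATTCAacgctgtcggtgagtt
miR-181b: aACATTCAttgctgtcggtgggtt
miR-181c: aACATTCAacctgtcggtgagttt
miR-181d: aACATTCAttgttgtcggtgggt
The seed ACATTCA was at this place in these 4 of 296 entries, and no other entry held it at any place. Positions are counted from 1 at the 5′ end, with the base of the first-named member first. miR-181a and miR-181b, both of 24 bases, shared their first 8 bases and differed at A9T, C10T and A21G. miR-181b and miR-181d differed at C12T, and miR-181d was 1 base shorter. miR-181a and miR-181c were 2 edits apart, where an edit is a base changed, added or lost. The nearest entry outside the family was at least 8 edits from any member. No source used here says how tags matching several members were treated, so the low values of miR-181c and miR-181d may hold tags of their abundant relatives, which was not tested.

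miR-181a was the main member of the family and was higher in goat than in cow milk EVs. It stood at 2050, 1110, 1450 and 1691 TPM in goats 17, 44, 79 and 127, against 479, 666, 581, 403 and 1400 TPM in cows 1, 2, 3, 20 and 62. The ranges overlapped through 1 animal, since cow 62 was above goat 44, and each goat was above each of the other 4 cows. Among the tested entries the species did not overlap in 51.2%, and each goat was above each cow in 30.9%. Goats averaged 1575 ± 396 TPM and cows 706 ± 401 TPM (SD, n = 4 and n = 5), a ratio of 2.23. On the log2(TPM + 1) scale goats minus cows was 1.27 (standard error 0.34, 95% interval 0.55 to 1.99). This passed the test across 217 entries, those with more than 1 TPM in 4 or more libraries (adjusted p = 0.00400, limma with Benjamini-Hochberg adjustment). Of these entries, 37.3% were called higher in goats, and 65 had a larger difference than miR-181a. The median difference of all tested entries was 0.24, so miR-181a lay 1.03 above it. Without cow 62 the cow mean was 532 ± 115 TPM (SD, n = 4) and the ratio of means 2.96.

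miR-181a also took a higher place among the miRNAs of a goat than of most cows. By its level it ranked 21 to 30 in the goats. In cows 1, 2, 3 and 20 it ranked 36 to 49, and in cow 62 it ranked 22. By species mean it held rank 26 of 296 in goats, between miR-103 at 1812 ± 330 TPM and miR-186 at 1543 ± 402 TPM (SD, n = 4). In cows it held rank 36, between miR-2285t at 709 ± 327 TPM and miR-30f at 643 ± 161 TPM (SD, n = 5). Its mean differed from these neighbours by less than 1 SD.

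miR-181b, the second member, was scarcer than miR-181a in every animal, and its species difference missed the threshold. It stood at 244, 173, 171 and 140 TPM in goats 17, 44, 79 and 127, against 100, 132, 139, 91 and 255 TPM in cows 1, 2, 3, 20 and 62. The highest of all 9 values was that of cow 62, while the other 4 cows were below every goat, by as little as 1 TPM between goat 127 and cow 3. Goats averaged 182 ± 44.0 TPM and cows 143 ± 65.6 TPM (SD, n = 4 and n = 5). The log2 difference, goats minus cows, was 0.41 (standard error 0.31, 95% interval -0.25 to 1.08, adjusted p = 0.265, limma). The interval holds 0 and reaches into that of miR-181a. Without cow 62 the log2 difference was 0.64 (adjusted p = 0.0636, limma) and the ratio of means 1.58. By species mean miR-181b ranked 68 in goats, next to miR-379 and miR-135a, and 62 in cows, next to miR-652 and let-7e.

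**Figure D1:**
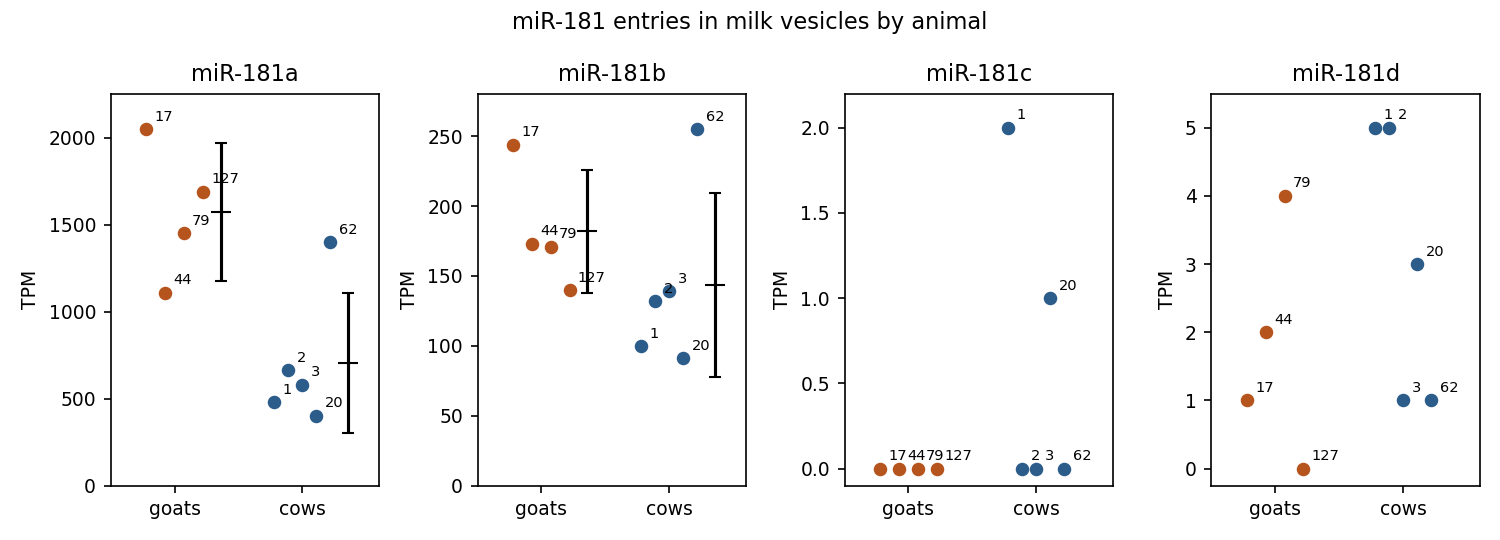
TPM of the 4 miR-181 entries (y axes, linear, each panel with its own scale) in goats and cows (x axis), with 1 point per animal labelled by its number. Bars beside miR-181a and miR-181b give the mean and SD of 4 goats and 5 cows. For miR-181a and miR-181b, cow 62 lies apart from the other 4 cows, at 1400 and 255 TPM.

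miR-181c and miR-181d, which share a gene pair of their own, were at or near the lower end of the table. miR-181d was at 1, 2, 4 and 0 TPM in goats 17, 44, 79 and 127, against 5, 5, 1, 3 and 1 TPM in cows 1, 2, 3, 20 and 62. Its log2 difference, goats minus cows, was -0.61 (standard error 0.47, adjusted p = 0.279, limma), and values of a few whole TPM are coarse. As a percentage of miR-181b in the same library, from which it differs by 1 base and its length, miR-181d was at 0 to 2.34% in goats and 0.392% to 5.00% in cows. miR-181c was listed at 0 in all 4 goats and in cows 2, 3 and 62, at 2 TPM in cow 1 and at 1 TPM in cow 20. It did not reach the filter of the test, and no fold is given. Thus 1 of the 3 tested members was called higher in goats and 0 were called lower, beside 37.3% and 24.0% of all tested entries.

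The balance of the 2 main members differed between the species. miR-181a exceeded miR-181b by 8.40, 6.42, 8.48 and 12.1 times in goats 17, 44, 79 and 127, against 4.79, 5.05, 4.18, 4.43 and 5.49 times in cows 1, 2, 3, 20 and 62. Each goat was above each cow, cow 62 included, which was so in 35.3% of 17 comparable pairs of entries described further on. The ratio averaged 8.84 ± 2.36 for goats and 4.79 ± 0.51 for cows (SD, n = 4 and n = 5). On the log2 scale the means were 3.11 in goats and 2.25 in cows, a difference of 0.86, or a factor of 1.81 (two-sided exact permutation test over 126 splits, p = 0.00794, the smallest this test can give). It is a test of whether miR-181a and miR-181b differed by the same amount between species, and a ratio within a library does not move with its scaling. With medians in place of means the difference was 0.82 and missed the threshold (exact permutation p = 0.0635). The goats were more spread than the cows in this ratio. Goat 127 had the highest ratio, with the lowest miR-181b and the second miR-181a of the goats.

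Taken as shares of the family, miR-181a made up 86.4% to 92.4% in goats and 80.6% to 84.5% in cows, while miR-181b made up 7.65% to 13.5% in goats and 15.4% to 19.3% in cows. Neither share overlapped between the species. This restates the ratio above, since these members make up nearly all of the family, and 58.8% of the 17 comparable pairs had ratios that did not overlap. miR-181d was at most 0.246% of the family in goats and 0.853% in cows. miR-181c was at most 0.341% in cows.

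The summed family followed miR-181a. It came to 2295, 1285, 1625 and 1831 TPM in goats 17, 44, 79 and 127, against 586, 803, 721, 498 and 1656 TPM in cows 1, 2, 3, 20 and 62. As a percentage of all listed TPM goats averaged 0.568 ± 0.141% and cows 0.264 ± 0.161% (SD, n = 4 and n = 5), or 0.195 ± 0.048% without cow 62. Cow 62, at 0.542%, lay between goat 44 at 0.504% and goat 17 at 0.565% and above goat 79 at 0.439%. The highest share, 0.765%, was in goat 127, whose listed total was the lowest of all animals. The sum was not tested between species.

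**Figure D2:**
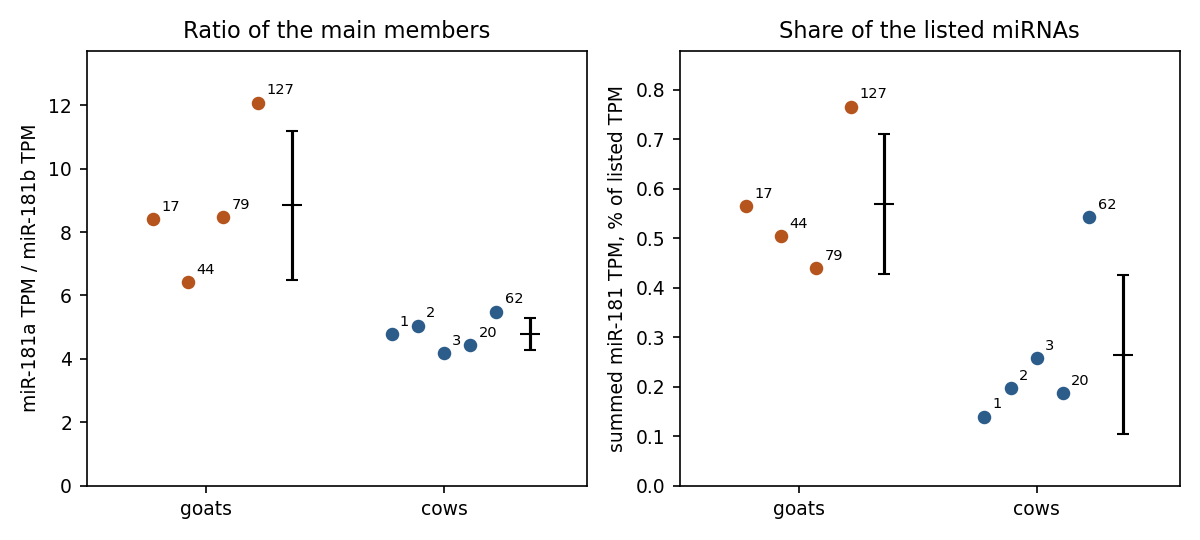
Left, ratio of miR-181a to miR-181b TPM, and right, summed miR-181 TPM as a percentage of all listed TPM (linear y axes), by species, with 1 point per animal labelled by its number and bars for the mean and SD. The ratio separates the 4 goats, at 6.42 to 12.1, from the 5 cows, at 4.18 to 5.49, whereas the share of cow 62 lies among the goats.

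A shifted balance between 2 seed-sharing members was not particular to the miR-181 family. A total of 17 pairs of entries named a and b of the same number shared bases 2 to 8 and were above 0 in all libraries, miR-181 among them. Their log2 ratios of a to b did not overlap between the species in 58.8% of pairs, and in 35.3% each goat was above each cow. The goat minus cow difference ran from -1.74 for miR-30a-5p to miR-30b-5p to 1.06 for miR-339a to miR-339b. The miR-181 difference of 0.86 was exceeded in size by 6 pairs and in the same direction by 2, the other being miR-27a-3p to miR-27b at 0.93. The difference was positive in 9 pairs, miR-181 among them, and negative in 8. These other pairs are given as values and were not tested.

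**Figure D3:**
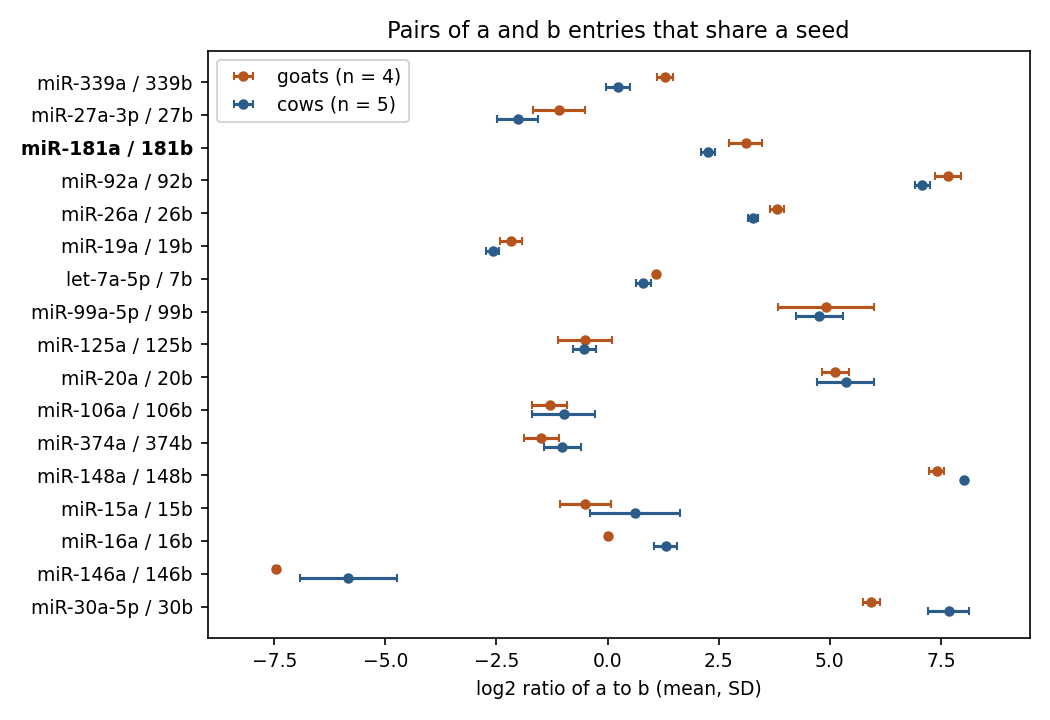
Log2 ratio of the a to the b entry (x axis) for the 17 pairs that share a seed (rows, ordered by the goat minus cow difference), as mean and SD of 4 goats and 5 cows. The miR-181 pair, in bold, stands below the miR-339 and miR-27 pairs with means of 3.11 in goats and 2.25 in cows.

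Cow 62 stood apart from the other cows in miR-181a and miR-181b more than in most other miRNAs, but not in miR-181c or miR-181d, at 0 and 1 TPM. Its miR-181a was 2.64 times the median of the other 4 cows, and its miR-181b was 2.20 times that median. Among the 155 entries above 0 in every library, only 4 had a larger excess than miR-181a in this cow and 6 had a larger one than miR-181b. The median excess over all 155 was 0.02 on the log2 scale, with single entries on both sides of it. Entries of larger excess than miR-181a were miR-335, miR-15a, miR-15b and miR-379, whose means in cows were 2.2, 2.8, 1.6 and 4 TPM, where whole TPM are coarse. These names were chosen after their values were seen. Between miR-181a and miR-181b in excess lay miR-574, with 93 TPM in cow 62 and at most 44 TPM in the other cows. In the other cows miR-181a and miR-181b also lay close to each other, at log2 values against the remaining cows of -0.38 and -0.44 in cow 1, 0.33 and 0.14 in cow 2, 0.02 and 0.26 in cow 3, and -0.63 and -0.57 in cow 20. Against the remaining goats they were at 0.50 and 0.51 in goat 17, -0.61 and 0.02 in goat 44, -0.22 and -0.02 in goat 79, and 0.22 and -0.31 in goat 127.

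**Figure D4:**
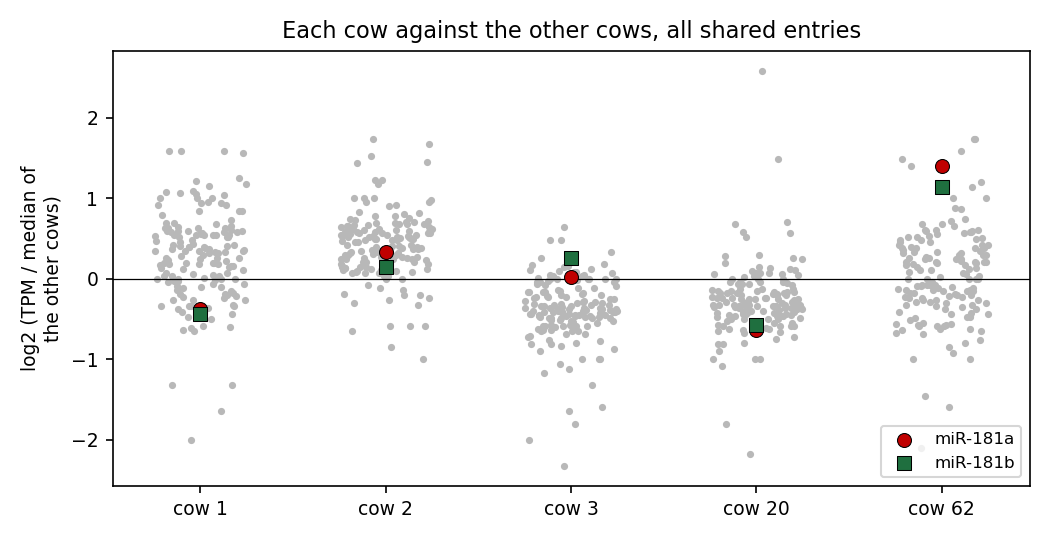
Log2 of a cow's TPM over the median of the other 4 cows (y axis) for the 155 entries above 0 in every library, by cow (x axis), with grey points for single entries, a red circle for miR-181a and a green square for miR-181b. Both members lie near the top in cow 62, at 1.40 and 1.14, and between -0.63 and 0.33 in the other cows.

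The call of miR-181a did not rest on 1 animal. With each animal left out in turn its log2 difference ran from 1.11 to 1.55, and every adjusted p was at most 0.0192 (limma). For miR-181b it ran from 0.26 to 0.64 and never passed the test.

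**Figure D5:**
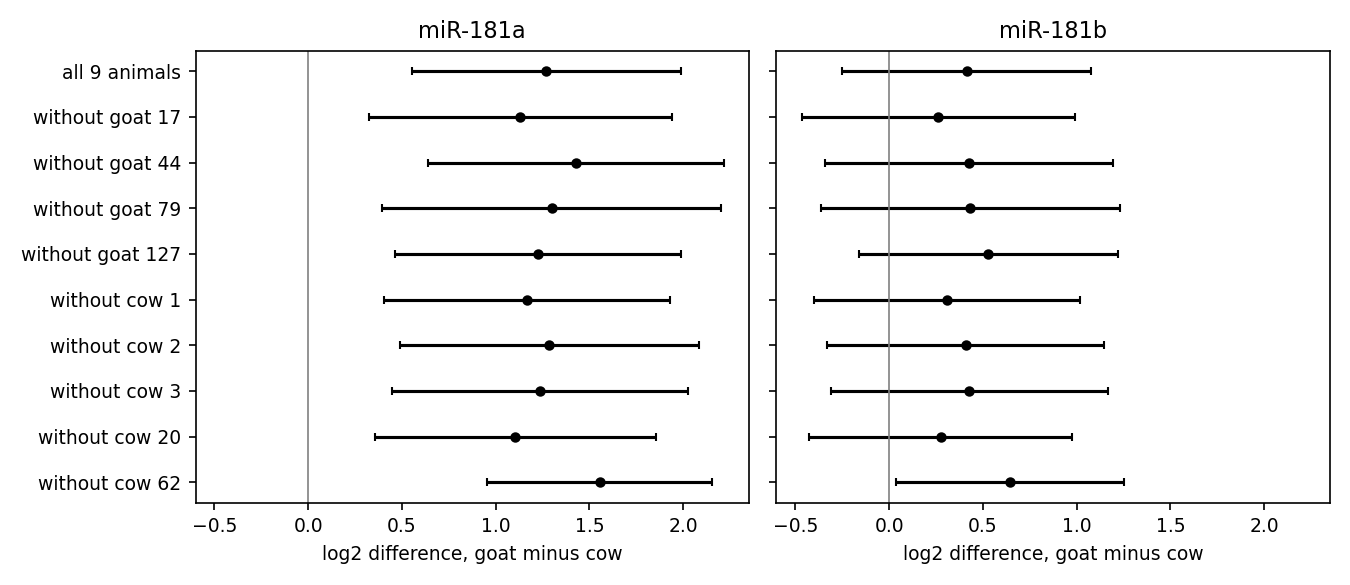
Log2 difference, goat minus cow, with its 95% interval from limma (x axis) for miR-181a and miR-181b with all 9 animals and with each animal left out (rows). The intervals of miR-181a stay above 0 in all rows, and those of miR-181b hold 0 in all rows but the one without cow 62.

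Among other miRNAs linked to immune regulation, most of those called between the species were higher in goats, like miR-181a. Of 13 such entries tested, 7 were higher in goats, 1 was lower and 5 did not pass. Among all tested entries 61.3% were called, 37.3% higher and 24.0% lower, so being called was not particular to this list. The median log2 difference was 1.18 for the list, beside 0.24 for all tested entries. By the mean of both species the most abundant were miR-21-5p, found in many activated cells, miR-146b, a brake on innate signalling, and miR-92a, of a cluster that promotes lymphocyte growth. Of these 3, miR-146b passed, with a log2 difference of 7.03 (standard error 0.28, adjusted p = 2.81e-11, limma). The miRNA let-7i, above miR-92a in goats and below it in cows, was named after its value was seen. It was also higher, with a log2 difference of 1.79 (standard error 0.32, adjusted p = 1.62e-04, limma). The lower entry was miR-125b, named after its value was seen, which averaged 212 ± 49.2 TPM for goats and 532 ± 128 TPM for cows (SD, n = 4 and n = 5). Much larger differences than that of miR-181a were thus found in both miR-146 entries and in miR-155 and miR-223.

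The tested leukocyte markers were higher in goats as well, while markers of other cell types gave mixed or few calls. These calls are to be read beside the 37.3% of all tested entries called higher in goats and the 24.0% called lower. Most tested leukocyte entries, miR-155 and miR-223 among them, are also on the immune-linked list, so both lists hold their calls. The 6 leukocyte entries summed to 366 to 1131 TPM in goats and 16 to 49 TPM in cows, and all 5 tested were higher in goats, miR-155, miR-223 and miR-142-5p being the most abundant in goats. None was at 0 in all animals of a species. EVs of more leukocytes and more of these miRNAs per vesicle cannot be told apart, and the part of leukocyte EVs in the species difference of miR-181a was not tested. In cow 62 the leukocyte sum was 38 TPM, within the 16 to 49 TPM of the other cows. The 2 erythroid entries, miR-451 and miR-486, summed to 1 to 37 TPM in goats and 0 to 10 TPM in cows, and neither reached the filter. Of 7 markers chosen for the stromal and endothelial list, 3 were among the listed entries. These 3 summed to 217 to 425 TPM in goats and 19 to 30 TPM in cows. Most of this was miR-143, at 216 to 423 TPM in goats and 14 to 25 TPM in cows, which was called higher. The other of the 2 tested, miR-126-3p, lay at 0 to 3 TPM in goats and 0 to 5 TPM in cows. It leaned the other way without passing (log2 difference -0.92, standard error 0.53, adjusted p = 0.144, limma). miR-145 of this list was at 0 in all cows. Of the 7 epithelial entries, led by miR-148a, miR-200a and miR-200c, 1 was higher, 1 was lower and 5 did not pass. They summed to 88054 to 173405 TPM in goats and 128915 to 202963 TPM in cows, with 139275 TPM in cow 62. The 2 muscle entries, miR-499 and miR-1, summed to 88 to 201 TPM in goats and 49 to 97 TPM in cows. Of these only miR-499 was tested, and it was called higher in goats (log2 difference 1.04, standard error 0.30, adjusted p = 0.00770, limma).

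The entry whose profile was most like that of miR-181a was miR-499, a miRNA known from an intron of a slow muscle myosin gene. Likeness was the root mean square difference of centred log2(TPM + 1) values over the 9 animals, which was 0.29 for miR-499 and 1.05 for the median entry. miR-499 was at 199, 87, 139 and 104 TPM in goats 17, 44, 79 and 127, against 50, 61, 56, 49 and 97 TPM in cows 1, 2, 3, 20 and 62. Its cow 62 was thus also above the other 4 cows and above goat 44. Next came miR-30b-5p at 0.40, miR-6119-3p at 0.43, miR-331-3p at 0.48 and, at place 5 of 216, miR-181b at 0.49. For miR-181b the nearest were miR-30f at 0.36, miR-484 at 0.37, and miR-28, miR-345-3p and miR-574, each at 0.38 to 0.39, with miR-181a at place 25. For miR-181d they were miR-140, miR-152, let-7e, let-7a-5p and miR-21-5p, at 0.46 to 0.53, and miR-181a came at place 151. With 0 to 5 whole TPM the profile of miR-181d is coarse, and no likeness or difference is read from it. The points share libraries, so these values are a description.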

How the data were processed

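Small RNA libraries of milk-derived EVs (4 goats, 5 cows, 1 animal each) were made by the authors with a NEBNext kit and sequenced on a NextSeq instrument. Reads were trimmed, and tags of both species were counted on the bovine entries of miRBase. No source used here names the mapping program or the genome build. The score deposited by the authors is TPM rounded to whole numbers, and the listed entries hold 23.9% to 42.0% of the total to which a library is scaled. TPM keep no read number and the study gives mean reads by species alone, so the depth and counting error of a library are unknown and no interval for counting was computed.

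Species were compared with limma 3.58.1 (R 4.3.3) on log2(TPM + 1) with a variance trend, over the 217 entries with more than 1 TPM in 4 or more libraries. P-values were adjusted over them by Benjamini-Hochberg, and calls were made below 0.05. The model was tested on simulated data. The ratio of miR-181a to miR-181b was compared with a two-sided exact permutation test. Sequences were compared with edlib 1.3.9.post1. Named entries are the members, the 5 nearest in profile to each tested member, up to 3 of highest mean per list, pairs a and b that share a seed, and neighbours in rank. Exceptions, chosen after their values were seen, are miR-335, miR-15a, miR-15b and miR-379 in cow 62, and let-7i and miR-125b among the immune-linked entries. The 6 lists (immune-linked, leukocyte, erythroid, stromal and endothelial, epithelial, muscle) and the members were chosen with earlier results of these data known. Alternatives were pseudocounts (0.1 and 10), filters, scalings, variance models, medians, and each animal left out.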

Additional observations from a re-analysis of the deposited data

Results flagged for a closer look

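Of 18 sets of values checked with Dixon's test within a species, 3 held an animal beyond the 95% critical value, and all 3 were cow 62. Such a test flags about 1 in 20 groups by chance, and these 3 values are not independent, since miR-181a makes up most of each. The first was miR-181a at 1400 TPM, where the gap to the next cow was 0.736 of the range of the 5 cows, beyond the critical 0.71. The second was the summed family at 1656 TPM (0.737 of the range). The third was miR-181a as a share of the listed TPM, at 0.458% (0.728 of the range). miR-181b of the same cow, at 255 TPM, stayed just inside with 0.707. The ratio of miR-181a to miR-181b in this cow, 5.49, was not apart from the other cows (0.339 of the range). Flags were not particular to cow 62. Over the 155 entries above 0 in every library, the same test flagged cow 2 in 6, cow 1 in 5, cow 62 in 4, cow 3 in 1 and cow 20 in 0.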

How the results depend on the processing

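miR-181a kept its direction and its call under all 10 other settings and with each of the 9 animals left out, with log2 differences of 1.18 to 1.36 and 1.11 to 1.55. miR-181b kept its direction and did not pass under any of them (0.33 to 0.51, and 0.26 to 0.64 with an animal left out). miR-181d stayed negative and did not pass (-1.34 to -0.14 under the 8 settings that kept it, and -0.97 without goat 79 to -0.20 without goat 127). The log2 ratio of miR-181a to miR-181b differed by 0.69 to 1.00 with an animal left out, with exact permutation p of 0.0179 to 0.0286. With medians in place of means it differed by 0.82 (exact permutation p = 0.0635). The summed family differed by 728 to 1107 TPM and by 0.238 to 0.374 percentage points of the listed TPM with an animal left out, the higher value in each case without cow 62. The number of entries called, 133, was 72 among those above 0 in all libraries and 80 among those above 10 TPM in at least 4 libraries, where fewer entries were tested, 158 without a filter, 152 to 154 under the 3 rescalings, and 126 to 141 with an animal left out. No paired analysis was possible because the goats and cows are separate animals with no pairing between them. The depth of each library is unknown, which limits miR-181c and miR-181d most, and with 4 goats and 5 cows the exact test cannot go below 0.00794.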
